A study of Mus musculus with 6 samples.

Results

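Hspa1b, Dnajb1 and Hsph1 are the heat shock chaperone genes whose mRNA the deposited table lists as lower in mouse U14 samples that overexpress FOXP1. They are 3 of the 1722 genes in that table, and 3 of the 217 listed as lower. The RNA of both groups also held transcripts of other cells, as described below. The members were chosen by the authors' call in this same comparison, a q-value under 0.05 with a fold change of at least 2, so the differences between the groups given here describe the members and test nothing. All 3 members were found by gene symbol, with Entrez identifiers 15511, 81489 and 15505.

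U14 is a mouse cervical carcinoma cell line, and FOXP1 is a forkhead transcription factor. Poly(A)-selected RNA was sequenced in 3 wild-type (WT) libraries, numbered 1 to 3, and 3 libraries of the genotype OEFOXP1, whose columns are numbered 2, 3 and 4. The labels give no other treatment, and do not say how FOXP1 was expressed, whether the overexpressing cells are 1 clone, whether the libraries of a group are of separate origin, or whether the RNA came from cells in culture or from tissue. The spread between libraries may be technical. Foxp1 is not among the listed genes, and its level was not analysed here.

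The 3 proteins belong to a single machine. HSP70 binds exposed hydrophobic stretches of unfolded proteins in a cycle of ATP hydrolysis and exchange. J-domain proteins bring substrates to HSP70 and trigger the hydrolysis, and HSP110 proteins exchange the nucleotide so that the substrate is released. Hspa1b encodes the stress-inducible HSP70, Dnajb1 the J-domain protein HSP40, and Hsph1 the HSP110 protein. All are classical targets of HSF1, the transcription factor of the heat shock response, which binds inverted repeats of the unit GAA in heat shock elements.

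The promoter windows are shown because heat shock elements are the known point of control of these genes. Each window runs from 250 bases before to 50 bases after an annotated start, 5′ to 3′, so that the start is base 251. The sequences are RefSeq's, on the mouse build GRCm38.p6, and capitals mark matches to the 2 arrangements of the heat shock pair, GAANNTTC and TTCNNGAA. The first is for Hspa1b, chr17:34959189-34959488, minus strand. The second is for Hsph1, chr5:149636287-149636586, minus strand, and the last for Dnajb1, chr8:83607925-83608224, plus strand.
Hspa1b: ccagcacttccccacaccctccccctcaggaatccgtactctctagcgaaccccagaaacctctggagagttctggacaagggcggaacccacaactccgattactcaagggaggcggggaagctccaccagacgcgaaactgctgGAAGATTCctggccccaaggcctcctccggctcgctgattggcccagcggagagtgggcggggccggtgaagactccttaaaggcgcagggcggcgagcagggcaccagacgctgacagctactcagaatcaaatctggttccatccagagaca
Hsph1: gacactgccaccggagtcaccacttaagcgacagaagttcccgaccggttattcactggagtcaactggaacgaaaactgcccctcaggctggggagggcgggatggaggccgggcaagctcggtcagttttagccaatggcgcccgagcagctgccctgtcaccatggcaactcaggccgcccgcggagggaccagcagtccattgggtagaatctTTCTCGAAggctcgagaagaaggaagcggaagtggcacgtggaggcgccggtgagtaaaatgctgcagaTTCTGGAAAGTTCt
Dnajb1: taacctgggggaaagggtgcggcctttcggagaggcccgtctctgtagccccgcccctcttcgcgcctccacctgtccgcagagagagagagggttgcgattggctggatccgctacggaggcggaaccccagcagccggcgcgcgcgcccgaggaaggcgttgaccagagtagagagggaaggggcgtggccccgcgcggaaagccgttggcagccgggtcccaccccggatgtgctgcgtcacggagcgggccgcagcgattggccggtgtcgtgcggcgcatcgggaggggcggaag

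In the Hspa1b window the single match to a heat shock pair lies at bases 147 to 154, upstream of the start. The Hsph1 window holds 3 matches. A match upstream of the start lies at bases 218 to 225, and 2 overlapping pairs at bases 287 to 299, beyond the start, form the 3-unit element, GAANNTTC followed by NNGAA, read on the other strand. A second RefSeq window of Hsph1, which overlaps the printed window, holds the same matches. Neither of the 2 windows of Dnajb1 holds a perfect pair, which says only that these letters are not there. Of 32851 promoter windows of the same length in the RefSeq table, 15.1% hold at least 1 of the 2 pairs and 0.603% the 3-unit element. A CCAAT box (CCAAT on either strand), the usual site of the factor NF-Y, is present in all 3 printed windows and in 37.4% of all windows. A GC box (GGGCGG on either strand) is also in all 3, against 35.7% of all windows. The forkhead site TGTTTAC, searched on both strands because FOXP1 is a forkhead factor, is in none of the members' windows and in 3.65% of all windows, and the letters TATAAA are in none against 13.6%. A match is a description of the sequence and not a measured binding site.

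The totals behind the values were 16824351 to 20410060 fragments per library. Expression is given as FPKM, fragments scaled to transcript length and to library size, as made by the authors. Intervals on a single library are exact Poisson 95% intervals on the rebuilt fragment counts. They cover counting error only, since reads without molecular identifiers are not independent molecules.

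All 3 members were higher in every wild-type library than in any overexpression library. They were picked for a difference between these same groups. The share of listed genes separated in this way was not counted, so nothing particular to the members is read from it. Hspa1b fell the most, 3.92-fold in the authors' deposited table, whereas Dnajb1 and Hsph1 each fell 2.04-fold. Wild-type library 2 had the highest level of all 3 genes. In the authors' comparison 1.38% of the 15689 genes tested were listed as lower, and since the members were picked by that call, their own count of 3 in 3 is no result.

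Hspa1b stood at 31.6, 69.0 and 25.5 FPKM in wild-type libraries 1, 2 and 3. In overexpression libraries 2, 3 and 4 it stood at 15.2, 7.17 and 11.4 FPKM. Library 2 was more than 2-fold above each of the other wild-type libraries, and the lowest wild-type library was 1.68 times the highest overexpression library. The group means were 42.0 ± 23.6 FPKM (SD, n = 3) in wild type and 11.2 ± 4.0 (SD, n = 3) in overexpression. The difference of mean log2(FPKM + 1) was -1.74 with a standard error of 0.51. The authors' deposited table gives a log2 fold change of -1.97 and a q-value of 6.86e-06. Without wild-type library 2 the difference of mean log2(FPKM + 1) was -1.32.

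Dnajb1 stood at 82.4, 102 and 75.1 FPKM in wild-type libraries 1, 2 and 3, and at 46.3, 46.7 and 39.7 FPKM in overexpression libraries 2, 3 and 4. Its groups were 1.61-fold apart at their nearest libraries. The means were 86.6 ± 14 FPKM (SD, n = 3) and 44.3 ± 3.91 (SD, n = 3). The difference of mean log2(FPKM + 1) was -0.94 with a standard error of 0.15. The log2 fold change in the authors' deposited table was -1.03, with a q-value of 4.72e-07.

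Hsph1 stood at 45.1, 57.9 and 43.2 FPKM in wild-type libraries 1, 2 and 3, and at 23.0, 26.1 and 25.9 FPKM in overexpression libraries 2, 3 and 4. Its nearest libraries were 1.66-fold apart. The means were 48.7 ± 8.0 FPKM (SD, n = 3) and 25.015 ± 1.71 (SD, n = 3). On the log2(FPKM + 1) scale the means differed by -0.93 with a standard error of 0.14, beside a log2 fold change of -1.03 and a q-value of 1.39e-08 in the authors' deposited table. The difference without wild-type library 2 was -0.80 for Hsph1 and -0.82 for Dnajb1.

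**Figure D1:**
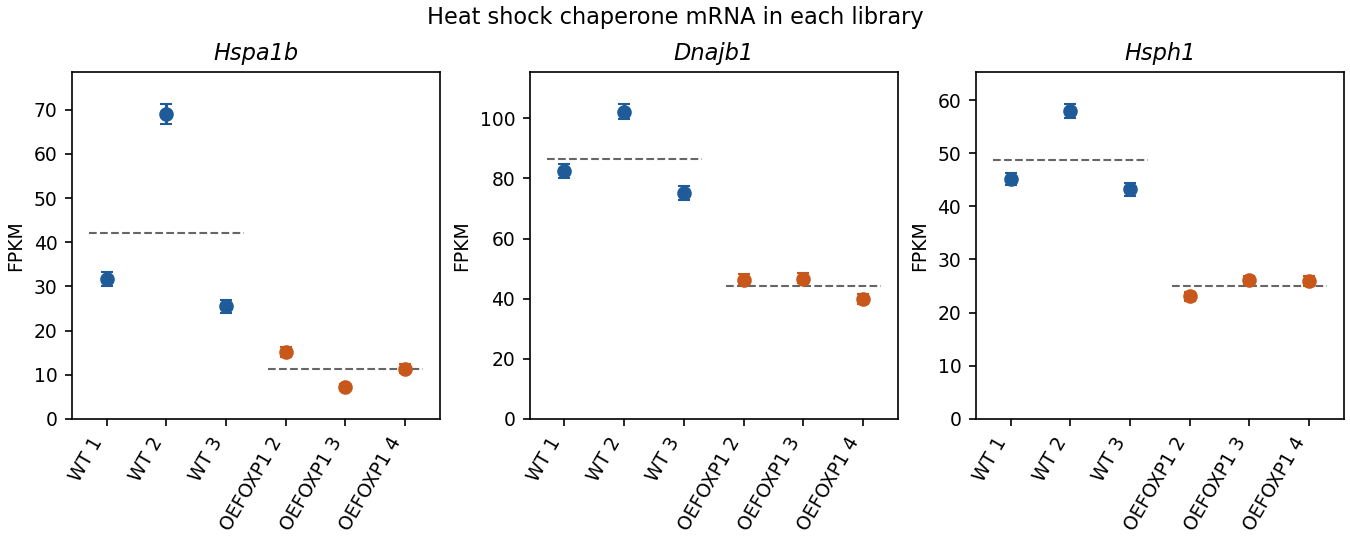
FPKM of Hspa1b, Dnajb1 and Hsph1 (vertical axes, linear from 0) in each wild-type (WT, blue) and FOXP1-overexpressing (OEFOXP1, orange) library. Points are libraries, error bars exact Poisson 95% counting intervals, and dashed lines group means. Wild-type library 2 is the highest library for each gene, most of all for Hspa1b at 69.0 FPKM, and every overexpression library lies below every wild-type library.

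The fold of 2 that the table requires placed the members very unequally. Hspa1b, with a fold ratio of 0.255 in the authors' deposited table, had the 19th largest fall of the 217 lower genes. Dnajb1 and Hsph1, with ratios of 0.491 and 0.490, came 191st and 190th. They lay just inside the limit of 0.5, among 28 lower genes with a ratio at least as near to it, of which the nearest is at 0.499979. Genes just outside the limit were not analysed here. The median log2 fold change of the lower genes in the authors' deposited table was -1.20.

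By level per length, Dnajb1 was the highest of the 3 members in all 6 libraries. Hsph1 came next in 5 libraries, and in wild-type library 2 Hspa1b stood above Hsph1, at 69.0 against 57.9 FPKM. The counting intervals of those 2 values, 66.8 to 71.3 and 56.6 to 59.3 FPKM, did not overlap. In the wild-type mean, Hspa1b and Hsph1 differed by less than the spread of Hspa1b between libraries, while Dnajb1 stood above Hsph1 by more than the SD of either. In overexpression the ranges of the 3 genes over the libraries did not overlap.

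The proportion of Hsph1 to Dnajb1 varied less over the libraries than that of Hspa1b to Dnajb1. The ratio of Hsph1 to Dnajb1 FPKM was 0.548, 0.566 and 0.575 in the wild-type libraries in order of number. It was 0.497, 0.558 and 0.652 in overexpression libraries 2, 3 and 4, a span of 1.31-fold over all 6. Among the overexpression libraries this span was wider than that of either gene alone, 1.13-fold for Hsph1 and 1.17-fold for Dnajb1. In library 4 Hsph1 was higher and Dnajb1 lower than in library 2. Both genes were higher in library 3 than in library 2, and both were lower in library 4 than in library 3. The group means of this ratio differed by less than the spread of the overexpression libraries, at 0.563 ± 0.0140 (SD, n = 3) and 0.569 ± 0.0781 (SD, n = 3), and both genes were picked at the same fold of 2.04. The ratio of Hspa1b to Dnajb1 FPKM was 0.383, 0.675 and 0.339 in wild type, in the same order. It was 0.327, 0.153 and 0.286 in overexpression libraries 2, 3 and 4, a span of 4.40-fold. All 3 overexpression libraries lay below the wild-type ratios, with library 2 close under wild-type library 3.

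Within the wild-type group the 3 members ranked the libraries alike, with library 2 highest, then 1, then 3. The coefficient of variation was 56.1% for Hspa1b, 16.2% for Dnajb1 and 16.4% for Hsph1. Counting error was far smaller: Hspa1b rested on 1657, 3622 and 1287 fragments in the wild-type libraries, in order of number, and its intervals in FPKM were 30.1 to 33.2, 66.8 to 71.3 and 24.1 to 26.9. These intervals do not overlap, so the 3 wild-type libraries differed in Hspa1b beyond counting error. For Hsph1 libraries 1 and 3 had overlapping intervals, 43.9 to 46.4 and 42.0 to 44.4 FPKM, with library 2 above at 56.6 to 59.3. Among overexpression libraries no such common order was seen, since Hspa1b was lowest in library 3, Dnajb1 in library 4 and Hsph1 in library 2.

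The highest wild-type library exceeded the lowest 2.71-fold for Hspa1b, 1.36-fold for Dnajb1 and 1.34-fold for Hsph1. Among the 290 listed genes with a mean wild-type level of at least 10 FPKM, the median of this ratio was 1.37, and the members ranked 6th, 150th and 166th. Among the 98 of these listed as lower, Hspa1b ranked 1st. Without wild-type library 2 the ratio for Hspa1b was 1.24.

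A measure chosen after the values were seen was the level of library 2 over the higher of libraries 1 and 3. It was 2.18 for Hspa1b, 1.28 for Hsph1 and 1.24 for Dnajb1, which ranked 1st, 14th and 18th of the 290 genes. With a floor of 1 FPKM the ranks were 2nd, 80th and 94th of 964 genes, and with none 22nd, 190th and 209th of 1687. The second gene was H2-M2, at 1.77. Library 2 was the highest wild-type library in 93 of the 290 genes, or 32.1%. Among the 98 lower genes the members ranked 1st, 3rd and 5th. Summed cell type markers gave library 2 no such excess: the summed level of the listed leukocyte markers was 1141, 1788 and 1783 FPKM in wild-type libraries 1, 2 and 3, and that of the listed epithelial markers 398, 326 and 342 FPKM.

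**Figure D2:**
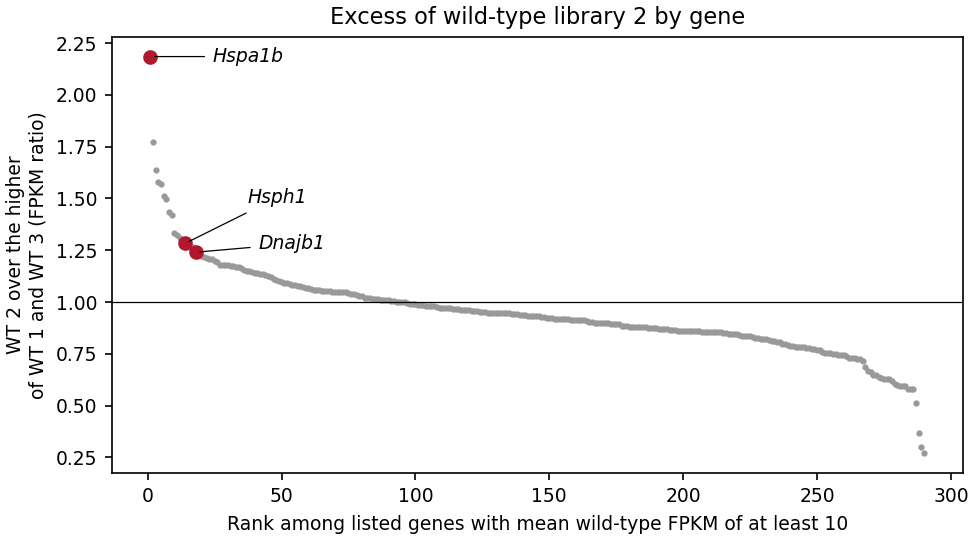
FPKM of wild-type library 2 divided by the higher of wild-type libraries 1 and 3 (vertical axis, linear) for the 290 listed genes with a mean wild-type level of at least 10 FPKM, ranked from highest to lowest (horizontal axis). Each grey point is a gene, and the members are red. Hspa1b stands first at 2.18, with Hsph1 14th and Dnajb1 18th.

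Set beside the lower genes as a group, Hspa1b lay below them in every overexpression library, and Dnajb1 and Hsph1 lay in or above their middle range in these libraries. On the log2(FPKM + 1) scale relative to the wild-type mean, the median of the 98 lower genes of at least 10 FPKM was -1.18, -0.92 and -0.99 in overexpression libraries 2, 3 and 4. Dnajb1 gave -0.89, -0.88 and -1.10 there, and Hsph1 -1.05, -0.88 and -0.89. In overexpression library 2 Dnajb1 was above the upper quartile of these genes, -1.04. Hspa1b gave -1.41, -2.40 and -1.80, below the lower quartile in all 3 libraries. In wild-type library 1 all 3 members were below the lower quartile, and in library 2 all 3 were above the upper quartile, 0.10, with Dnajb1 and Hsph1 both at 0.24. These differences were not tested, since the members were picked from the same comparison.

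**Figure D3:**
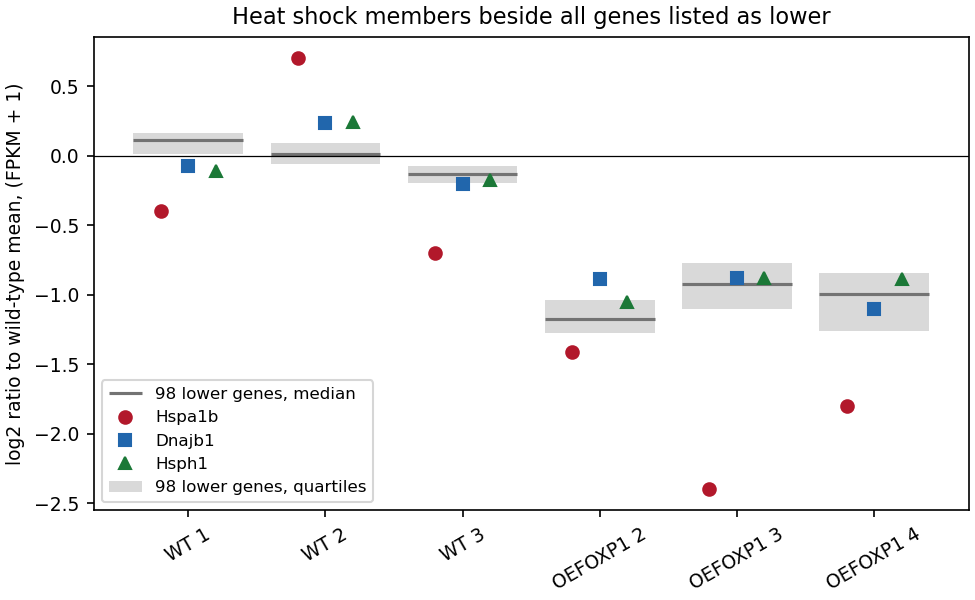
Log2 ratio to the wild-type mean on the (FPKM + 1) scale (vertical axis) in each library, for the 3 members (symbols) and for the 98 genes listed as lower with at least 10 FPKM in wild type, members included (grey boxes span the quartiles, lines are medians). In overexpression Hspa1b lies below the grey boxes, at -2.40 in library 3, and in wild-type library 2 all 3 members lie above the box.

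The RNA of both groups held transcripts of other cells, and the markers of those cells moved with the groups. Of 18 leukocyte markers, 14 were listed and all as higher, with a summed level of 1141 to 1788 FPKM in wild type and 5880 to 7950 FPKM in overexpression. The leukocyte markers Adgre1, Csf1r, Itgam and Itgax were not listed. Among all genes tested, 9.59% were listed as higher. None of the 14 was at 0 in any library, and the macrophage lysozyme gene Lyz2 alone stood at 947, 1481 and 1484 FPKM in wild type. These levels go against RNA of a carcinoma line alone in either group. Of 10 fibroblast markers, 5 were listed as higher, with sums of 168 to 193 and 453 to 743 FPKM. None of the 7 endothelial, 7 skeletal muscle or 5 erythroid markers was listed. Of 14 epithelial markers, the keratin gene Krt18 and the transcription factor gene Elf3 were listed as lower and the adhesion gene Epcam as higher. The sum of these 3 was 326 to 398 FPKM in wild type and 141 to 177 FPKM in overexpression, nearly all of it Krt18. The other epithelial markers were not listed, so the epithelial label could be checked on these 3 genes only. The part of this shift in the members' fall was not tested, and in bulk RNA fewer cells of a type and less RNA per cell cannot be told apart.

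Relative to Krt18 the groups overlapped for all 3 members. The ratio of Dnajb1 to Krt18 FPKM was 0.209, 0.317 and 0.222 in the wild-type libraries and 0.353, 0.271 and 0.246 in the overexpression libraries, each in order of number. The ratio of Hsph1 to Krt18 was 0.115, 0.180 and 0.128, and then 0.176, 0.151 and 0.161. For both genes the overexpression mean was the higher, at 0.290 ± 0.0560 against 0.249 ± 0.0590 for Dnajb1 and 0.162 ± 0.0123 against 0.141 ± 0.0344 for Hsph1 (SD, n = 3 in each group). The ratio of Hspa1b to Krt18 was 0.0803, 0.214 and 0.0752 in wild type and 0.116, 0.0416 and 0.0703 in overexpression. Its means, 0.123 ± 0.0789 and 0.0758 ± 0.0373 (SD, n = 3 in each group), differed by less than the wild-type SD, and wild-type libraries 1 and 3 lay close to the overexpression mean. Krt18 is itself 1 of the genes listed as lower, and these ratios show unequal change, not which gene changed.

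In the wider chaperone network, 9 of 119 genes in 7 lists of chaperones, cochaperones and heat shock factors were listed, 3 as lower and 6 as higher. These are shares of 2.52% and 5.04%, against 1.38% lower and 9.59% higher among all genes tested. The 3 lower genes are the members, which were picked for it, so nothing is read from that share. In the HSP70 and HSP110 list, 2 of 15 genes were lower and 1 higher. The listed rise was that of Hspa12a, a distant HSP70 relative, at 0.271, 0.227 and 0.471 FPKM in wild-type libraries 1, 2 and 3 and 0.585, 0.710 and 0.763 FPKM in overexpression libraries 2, 3 and 4. None of the 16 genes of HSP90 and its cochaperones, 10 small heat shock proteins, 11 chaperonins or 15 heat shock factors and other HSF1 targets was listed, Hsf1 among them. With 1.38% of all genes lower and 9.59% higher, lists of this size can hold no falls, and nothing is read from their absence. Unlisted genes did not pass the authors' limits, and their levels were not analysed here.

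Among 41 J-domain cochaperones, 1 was lower and 4 were higher, a share of 9.76% higher against 9.59% of all genes tested, so this count is near the background. The exchange factor list gave 1 rise in 12. Dnaja4, a cytosolic J-domain gene, stood at 1.196, 1.196 and 1.63 FPKM in wild-type libraries 1, 2 and 3 and 2.58, 3.37 and 2.62 FPKM in overexpression libraries 2, 3 and 4. Dnajc15, whose product sits at the mitochondrial inner membrane, stood at 14.3, 18.1 and 24.4 FPKM and at 40.8, 58.2 and 34.4 FPKM in the same order. Neither had overlapping groups. Both were listed for a difference between these same groups, so nothing is read from that separation.

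The remaining rises were of ER cochaperones and moved with plasma cell markers. Dnajb9 and Dnajc3 encode J-domain proteins of the ER, and Sil1 encodes the exchange factor of the ER HSP70, BiP. Dnajb9 stood at 21.8, 18.9 and 25.3 FPKM in wild-type libraries 1, 2 and 3 and at 70.1, 23.2 and 52.6 FPKM in overexpression libraries 2, 3 and 4. Library 3 lay within the wild-type range, so its groups overlapped. Dnajc3 stood at 13.7, 14.1 and 16.9 FPKM and then 43.0, 19.8 and 33.4 FPKM, and Sil1 at 1.48, 1.30 and 1.87 FPKM and then 5.79, 2.85 and 3.97 FPKM. In all 3 genes overexpression library 2 was highest and library 3 lowest.

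Of 8 plasma cell markers, 7 were listed, all as higher, against 9.59% of all genes tested. Their summed level was 255 to 369 FPKM in wild type and 4291, 359 and 1634 FPKM in overexpression libraries 2, 3 and 4, the same order as these ER genes. The members differed in it: Hspa1b, though low in all 3 libraries, had this order, while Dnajb1 was lowest in library 4 and Hsph1 in library 2. The plasma cell marker Xbp1 is also in the list of ER stress genes given below, as are Dnajb9 and Dnajc3, so these sets are not independent. The part of plasma cells in the ER genes' rise was not tested.

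**Figure D4:**
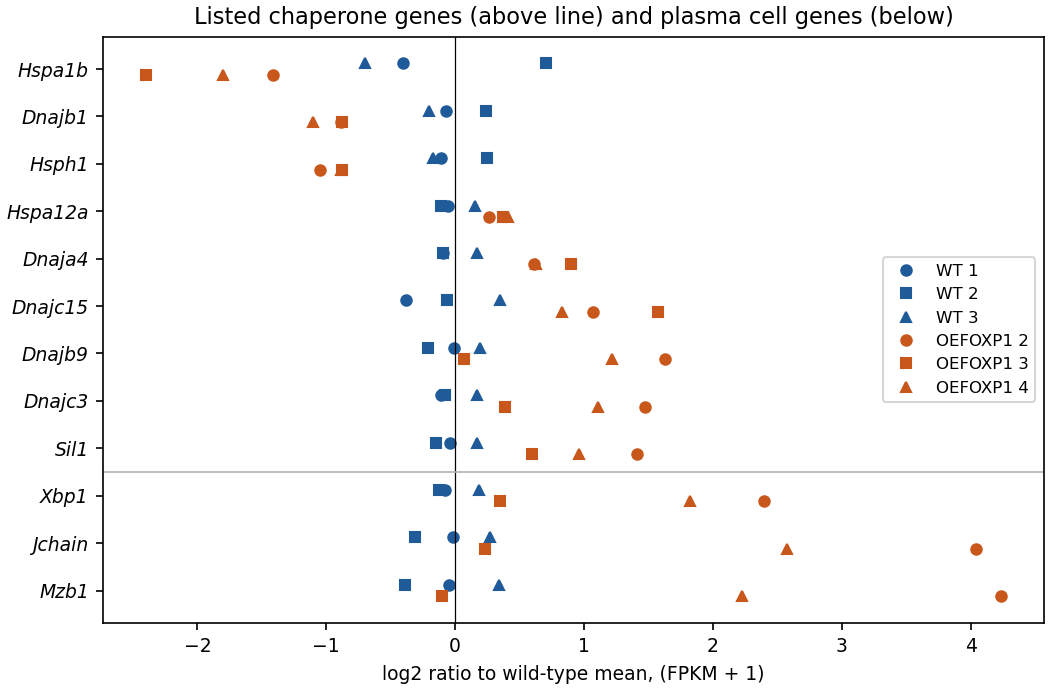
Log2 ratio to the wild-type mean on the (FPKM + 1) scale (horizontal axis) for the 9 listed chaperone genes (above the grey line) and the plasma cell genes Xbp1, Jchain and Mzb1 (below it). Symbols are libraries, blue for wild type and orange for overexpression. The 3 members lie to the left in overexpression, and Dnajb9, Dnajc3 and Sil1 lie furthest right in library 2 and least in library 3, as do the plasma cell genes.

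The deposited annotation gave the members few terms in common beyond cell compartments. The Gene Ontology term for chaperone cofactor-dependent protein refolding was held by all 3 and by 4 other listed genes, Cd74, H2-DMa, H2-DMb1 and H2-DMb2, which are MHC class II assembly genes and all listed as higher. Of 6 listed genes with the term for response to heat, Hspa1b was the 1 listed as lower. Of 8 with the term for response to unfolded protein, 2 were lower, Hsph1 and Comp, a cartilage matrix gene, and 6 higher. Among all 1722 listed genes 217 were lower and 1505 higher, so most genes of a term can be higher and nothing is read from these counts.

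The genes nearest to each member in profile were named by the smallest root-mean-square difference of mean-centred log2(FPKM + 1) values over the 6 libraries, among the 191 other lower genes with at least 1 FPKM in wild type. For Dnajb1 these were the amino acid transporter gene Slc38a3 at 0.0796, the predicted gene Gm11127 at 0.105 and, as the third, Hsph1 at 0.112. These profiles include the group difference by which both members were picked, at nearly the same fold, so their nearness is no result. For Hsph1 they were Ccdc85c at 0.0874, the cadherin gene Cdh17 at 0.0915 and the nucleoside transporter gene Slc29a2 at 0.0994, with Dnajb1 14th. Hspa1b had no near neighbour: the closest were the filamin gene Flnc at 0.488, the receptor gene Gprc5a at 0.519 and the histone gene H3c8 at 0.523. From Dnajb1 and from Hsph1, Hspa1b was 190th of the 191. Seen from Hspa1b, however, Dnajb1 was 14th and Hsph1 27th of the 191. The distance is not scaled for the size of a change, and Hspa1b changed the most of the members. Its low rank from the other 2 is therefore not read as a profile of another shape.

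The value of Hspa1b carries a limit that the others do not. It has a near-identical copy, Hspa1a, and the printed Hspa1b promoter window differs from that of Hspa1a at 4 of 300 bases. In the GENCODE M21 transcripts, 44.8% of all 125-base stretches of the Hspa1b transcript and 40.5% of 150-base stretches, the read lengths the labels name, occur in another gene, every one of them in Hspa1a. For Dnajb1 and Hsph1 none do. How fragments that fit both copies were counted is not given in the sources used here, and Hspa1a was not listed, so the division between the 2 copies is uncertain.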

How the data were processed

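The labels describe poly(A)-selected RNA read as paired ends on Illumina sequencers. Per the submitters' processing notes, Trimmomatic, HISAT2 and DESeq were used, with no versions, and the build is named hg19, although gene symbols are mouse. The deposited table holds the 1722 genes that passed the authors' limits, with the authors' p-value, q-value and fold ratio and its log2, overexpression over wild type. Per the file headers, the authors' mean normalised signal of each group comes from DESeq2. The column headed expression holds FPKM values made by the authors, as settled from the numbers: multiplied by 1 factor per gene and 1 per library, 100.0% of 10332 values were whole within 0.01. These give the fragment counts and library totals. The length behind Hspa1b was 2810 bases, equal to its mouse RefSeq length. Library columns were matched by title. Overexpression column 4 matches no single title and was used by its group.

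Genes named are the members, listed genes of the lists and the 3 nearest profiles per member. The members and lists were chosen with earlier results of these data known. No test of the members was made, and 15689, the number of genes tested by the authors, is q over p for the gene of smallest p. The rebuilding of counts and the profile distance were tested on simulated data. Python 3.11.15, numpy 2.4.6, pandas 2.3.3 and scipy 1.17.1 were used, with a pseudocount of 1.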

Additional observations from a re-analysis of the deposited data

How the results depend on the processing

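All 30 recomputed differences between groups stayed negative. The members were picked as lower and their groups do not overlap, so this sign was largely fixed in advance and nothing is read from it. Of 60 values recomputed under another setting, these 30 included, 19 moved by more than their tolerance. With each library's median over all listed genes set to 0, the differences of mean log2(FPKM + 1) were -2.54 for Hspa1b, -1.75 for Dnajb1 and -1.73 for Hsph1, larger because most listed genes are higher. With the replicate block, the mean difference within the shared numbers 2 and 3, they were -1.91, -0.90 and -0.9999. The samples share only a number: deviations from group means of same-numbered libraries correlated at 0.02 for number 2 and 0.08 for number 3 over 1722 genes. Leaving out each library in turn gave -2.02 to -1.32 for Hspa1b, -1.04 to -0.82 for Dnajb1 and -1.01 to -0.80 for Hsph1. The highest over lowest wild-type ratio ranged over 1.24 to 2.71 for Hspa1b, 1.098 to 1.36 for Dnajb1 and 1.05 to 1.34 for Hsph1 when each wild-type library was left out. Hspa1b ranked 40th of 964 genes in that ratio with a floor of 1 FPKM and 175th of 1687 with none. Of the 3 nearest genes, centring within groups kept 0 for Hspa1b, 1 for Dnajb1 and 0 for Hsph1. The 1 kept for Dnajb1 was Slc38a3, and Hsph1 was no longer among its 3 nearest. The lowest count of a member was 411 fragments, for Hspa1b in overexpression library 3.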

Other observations

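Immediate-early genes, which like heat shock genes respond to stress within minutes and rise with handling, were listed in 5 of 29 cases, 2 lower and 3 higher, shares of 6.90% and 10.3% against 1.38% and 9.59% of all genes tested. Ier3, an early-response gene, stood at 111, 131 and 84.1 FPKM in wild-type libraries 1, 2 and 3 and at 50.9, 65.7 and 44.7 FPKM in overexpression libraries 2, 3 and 4. Myc, the growth-promoting transcription factor, stood at 189, 242 and 191 FPKM and then at 89.0, 96.5 and 137 FPKM. The antiproliferative gene Btg2 was listed as higher, at 10.4, 8.36 and 8.92 FPKM and then 50.1, 16.3 and 29.0 FPKM, as did the phosphatase gene Dusp2, at 5.07, 5.36 and 4.36 FPKM and then 12.2, 17.0 and 8.64 FPKM, and the zinc finger gene Egr2, at 2.37, 2.602 and 1.81 FPKM and then 4.66, 3.56 and 6.86 FPKM. The groups did not overlap in any of these 5 genes, which were themselves listed for a difference between these groups. All but Btg2 were highest in wild-type library 2 within that group, genes listed as higher among them. Library 2 was the highest wild-type library in 34.0% of the 964 listed genes with a mean wild-type level of at least 1 FPKM. Its excess was small for Egr2, 2.602 against 2.37 FPKM in library 1, and for Dusp2, 5.36 against 5.07 FPKM. A part of handling was not tested.

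Of 30 genes of the ER stress and integrated stress responses, 5 were listed as higher and 1 as lower, shares of 16.7% and 3.33% against 9.59% and 1.38% of all genes tested. The higher genes were Dnajb9, Dnajc3, Xbp1, Herpud1 and Edem1. Dnajb9 and Dnajc3 were already counted as chaperone genes and Xbp1 as a plasma cell marker, so this share is not a separate result. Among the overexpression libraries all of these higher genes were highest in library 2 and lowest in library 3. The lower gene was Psat1, an enzyme of serine synthesis, at 212, 185 and 187 FPKM in wild-type libraries 1, 2 and 3 and 81.6, 119 and 92.1 FPKM in overexpression libraries 2, 3 and 4. Edem1, which takes part in ER-associated degradation, stood at 28.4, 28.2 and 30.6 FPKM and then 125, 29.3 and 74.1 FPKM, so that its groups overlapped.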
